A study of Mus musculus with 4 samples.

Results

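Described here are 43 genes for RNA-binding and splicing regulators of neurons, of 55487 genes in a table of transcript levels from sorted nuclei of mouse brain. They were chosen by symbol, with earlier results of these data known. They are the Rbfox, Nova, Elavl, Celf, Mbnl, Ptbp, Khdrbs, Srrm, Msi, Fmr1, Tia, Adar and Cpeb families with Qk and Pum2, and each of the 43 symbols was found once. Excitatory nuclei (2 libraries) and inhibitory nuclei (2 libraries) had been separated by fluorescence-activated sorting from wild-type brain without the olfactory bulb, and all 4 libraries carry the same batch label. The mice were adults, and their strain, exact age and the sort marker are not named in the labels. Values are TPM, read abundances per transcript length scaled to a fixed total, so levels of different genes can be set side by side. Nothing in the labels ties the replicates to different animals, and each p-value below therefore reflects library-to-library spread that may be technical.

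RNA-binding proteins of these families recognise short motifs in pre-mRNA and mRNA. Those acting in the nucleus decide whether an alternative exon is kept, depending on where they bind around it, and neurons use more alternative exons than most cells. Others act on mature mRNA, where they stabilise it, hold back or release its translation, or carry it to synapses, and the ADAR enzymes deaminate adenosine to inosine in double-stranded RNA. Many of the families have members with nearly the same binding preference, and the amount of each paralog can differ between cell types while the motif read is shared. A gene-level TPM measures the transcript of the regulator and holds nothing on the exons it regulates.

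Most markers of the sorted types followed the labels, but not all. Of markers of excitatory neurons, 8 of 10 were higher in excitatory nuclei and 1 was higher in inhibitory nuclei, and 10 of 11 tested inhibitory markers were higher in inhibitory nuclei. The excitatory marker going the other way was Slc17a6 (22.4 and 20.3 TPM in excitatory, 88.0 and 78.4 TPM in inhibitory libraries, log2 -1.91). Markers of several other neuron types were higher in the inhibitory libraries, 6 of 7 cerebellar granule cell markers among them. Summed levels there were 1351 to 1398 TPM for 9 striatal projection neuron markers (357 to 372 in excitatory libraries), 564 to 621 for 6 Purkinje cell markers (316 to 329), 76.7 to 82.1 for 6 thalamic and hindbrain markers (6.84 to 8.70), and 269.5 to 293 for 7 cerebellar granule cell markers (151 to 156). Of the Purkinje sums, Itpr1 made up 340 to 384 TPM in inhibitory and 233 to 252 TPM in excitatory libraries. Non-neuronal RNA was present in both groups: 8 microglia markers summed to 66.05 to 69.2 TPM in excitatory and 77.2 to 89.9 in inhibitory libraries, and 10 oligodendrocyte markers to 378 to 457 and 288 to 401. The summed level of 8 endothelial and mural markers was 12.9 to 13.0 TPM in all 4 libraries, with Cldn5, Pecam1, Flt1 and Kdr under 1 TPM in each. The 10 astrocyte markers summed to 552 to 578 TPM in excitatory and 261 to 295 TPM in inhibitory libraries, of which Slc1a2 made up 359 to 430 and 85.1 to 88.8 TPM. No marker on these lists was at 0 in all libraries. The part of nucleus composition in any difference below was not tested, and in such pooled nuclei fewer nuclei of a type and less RNA per nucleus cannot be told apart.

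Nearly all of these regulators were abundant. Of the 43, 42 reached 1 TPM in at least 2 libraries and were tested, and Mbnl3, a muscleblind gene on the X chromosome, was not (0.144 to 0.422 TPM). The median over the tested members was 101 TPM, against 12.2 TPM over all 26055 genes tested, and 22 of the 42 averaged at least 100 TPM. Celf2 was the most abundant (mean 814 TPM), followed by Tia1 (526), Srrm2 (395), Rbfox1 (255) and Ptbp2 (214). Msi1 (10.3), Nova2 (15.4), Ptbp3 (17.4) and Celf6 (24.5) were the lowest of those tested.

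**Figure D1:**
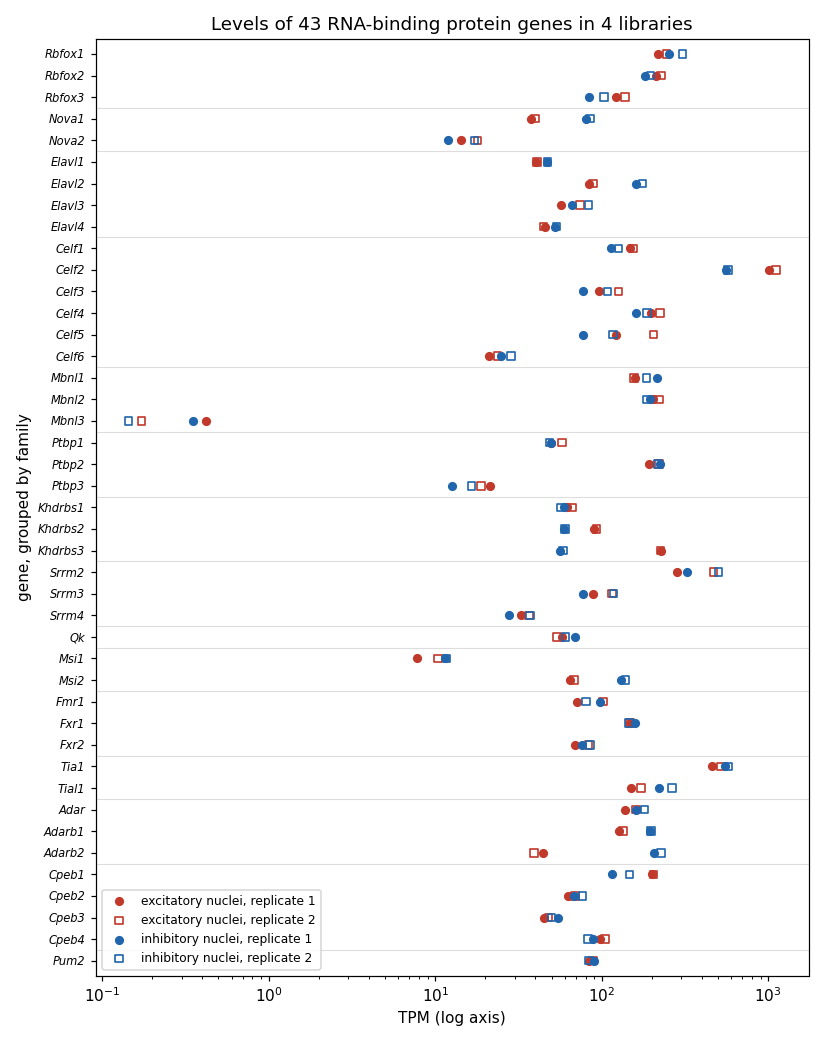
Level of each of the 43 genes in the 4 libraries (TPM, log axis), in family order from top to bottom, with filled circles for replicate 1 and open squares for replicate 2. Adarb2 and Khdrbs3 show the widest separation of red (excitatory) from blue (inhibitory), and Mbnl3 lies below 1 TPM.

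Between the groups, 10 of the 42 genes differed. Khdrbs3, Celf2, Cpeb1 and Khdrbs2 (4 genes) were higher in excitatory nuclei, and 6 were higher in inhibitory nuclei (Adarb2, Nova1, Msi2, Elavl2, Tial1 and Adarb1). Calls are limma's moderated test on log2(TPM + 1) with a Benjamini-Hochberg adjusted p under 0.05 over all genes tested. The same rule called 12.0% of all genes (5.43% higher in excitatory and 6.62% in inhibitory) and 14.1% of genes averaging at least 10 TPM, a level all 42 reached, against 23.8% of the members. Gene length moved with this share. Of the 18 members with a genomic span at or above the 90th percentile of protein-coding genes (109.91 kb), 8 were called, and of the 24 shorter ones 2 were called, Cpeb1 and Tial1. Over all tested protein-coding genes the same split gave 29.6% called among long genes and 10.3% among shorter ones, and the part of length in the members' calls was not tested. The members' median log2 fold change, excitatory over inhibitory, was -0.07, as it was over all genes (-0.07). The members' median size of change, 0.23, was that of all genes averaging at least 10 TPM (0.23). The members' median standard error was smaller than that of those genes, 0.117 against 0.157. The part of this in the share called was not tested.

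Leaving out any 1 library ended every call: limma, with 1 residual degree of freedom, called 0 members and 0 of all genes. The smallest adjusted p of a member was then 0.0631 without excitatory replicate 1, 0.0664 without excitatory replicate 2, 0.0560 without inhibitory replicate 1 and 0.0545 without inhibitory replicate 2. In these fits 13, 10, 10 and 15 members had an unadjusted p under 0.05. All 10 called members kept their direction in each of them, but this was fixed in advance, since their groups did not overlap. Exact permutation of 4 libraries in 2 groups has a smallest two-sided p of 0.333 for any single gene, so it could not replace this test.

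**Figure D2:**
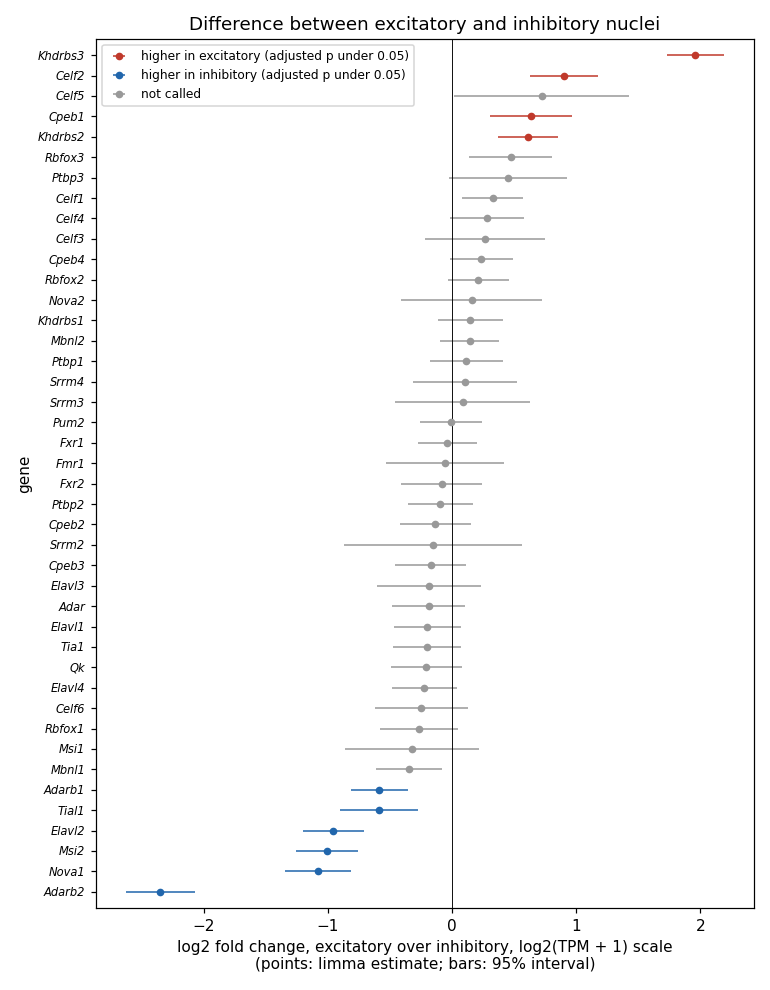
Log2 fold change, excitatory over inhibitory, of the 42 tested genes with 95% intervals from limma, sorted by size. Red and blue points passed an adjusted p of 0.05 (4 and 6 genes), and grey points (32 genes) did not.

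Promoter windows are shown for a pair of called genes from each side, since members of different families were higher in the same group. The windows come from RefSeq (GRCm38.p6) and run from 250 bases before to 50 bases after a transcript start, and 36 of the 43 genes had at least 1. The windows are Khdrbs2, chr1:32172472-32172771, plus strand; Cpeb1, chr7:81454709-81455008, minus strand; Adarb2, chr13:8202616-8202915, plus strand; and Msi2, chr11:88718228-88718527, minus strand. Capitals mark matches on either strand to the EGR motif GCGTGGGCG or its variant GCGGGGGCG, to the cyclic AMP response element TGACGTCA, or to the CCAAT box.
Khdrbs2: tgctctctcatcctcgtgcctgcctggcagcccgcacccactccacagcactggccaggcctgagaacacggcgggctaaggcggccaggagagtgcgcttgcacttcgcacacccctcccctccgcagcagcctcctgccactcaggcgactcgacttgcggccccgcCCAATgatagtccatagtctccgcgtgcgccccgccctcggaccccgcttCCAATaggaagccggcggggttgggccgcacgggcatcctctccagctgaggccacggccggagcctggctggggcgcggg
Cpeb1: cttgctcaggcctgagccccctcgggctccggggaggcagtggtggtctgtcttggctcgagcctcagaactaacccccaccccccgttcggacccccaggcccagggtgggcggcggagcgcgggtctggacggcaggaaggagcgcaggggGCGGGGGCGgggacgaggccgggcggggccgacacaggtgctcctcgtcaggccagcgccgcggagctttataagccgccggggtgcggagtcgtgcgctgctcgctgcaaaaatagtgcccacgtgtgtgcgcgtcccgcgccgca
Adarb2: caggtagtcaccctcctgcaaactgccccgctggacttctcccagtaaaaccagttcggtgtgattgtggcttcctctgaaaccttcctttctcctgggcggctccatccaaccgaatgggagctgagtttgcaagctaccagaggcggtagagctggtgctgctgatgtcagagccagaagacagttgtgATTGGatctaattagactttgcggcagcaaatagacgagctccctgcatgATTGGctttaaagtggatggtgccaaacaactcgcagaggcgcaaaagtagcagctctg
Msi2: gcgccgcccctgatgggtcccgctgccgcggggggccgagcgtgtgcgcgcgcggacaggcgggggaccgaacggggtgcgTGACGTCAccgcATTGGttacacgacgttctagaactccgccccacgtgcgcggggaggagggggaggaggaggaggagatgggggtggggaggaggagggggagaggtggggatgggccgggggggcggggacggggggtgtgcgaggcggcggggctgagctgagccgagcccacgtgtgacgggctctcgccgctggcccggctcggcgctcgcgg
The Cpeb1 window holds the EGR variant 97 bases before the start, a motif found in 2.91% of 32851 windows of the same length. GCGTGGGCG, the preferred site of EGR1, the factor named in the study's title, was in 0.612% of all windows and, among the 36 genes with a window, in that of Fxr1 only. The Msi2 window holds the response element 169 bases before the start (1.79% of all windows) and a reversed CCAAT box 157 bases before it. Khdrbs2 has 2 CCAAT boxes, 81 and 31 bases before the start, and Adarb2 has 2 in reverse, 59 and 9 bases before it, while 37.4% of all windows hold at least 1. The Khdrbs2, Cpeb1 and Msi2 windows were rich in G and C (70.3%, 72.7% and 76.3%, with 26, 33 and 39 CpG), and the Adarb2 window was at the median of all windows (52.7%). Each of the windows shown holds a match, so they do not stand for the called genes as a whole. Among the other called genes with a window only Elavl2 had a match, to the CCAAT box. Windows of Celf2, Nova1, Tial1 and Adarb1 held none, and Khdrbs3 had no window to search. A match describes letters in a window, and no binding data were used here.

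The Khdrbs family set the groups apart most on the excitatory side. These genes encode the STAR-domain proteins Sam68, SLM1 and SLM2, which bind paired U/A-rich motifs and control exons such as the alternative segments of neurexin transcripts. Khdrbs3 (SLM2, chromosome 15, 68928420 to 69101211, plus strand, mm10) stood at 227 and 226 TPM in the excitatory libraries and at 56.3 and 58.7 TPM in the inhibitory ones. It was 3.93-fold higher in excitatory nuclei (226 ± 0.912 against 57.5 ± 1.69 TPM, mean ± SD, n = 2), a log2 fold change of 1.96 ± 0.09 (SE, adjusted p = 0.00149), and the gap was many times the difference between libraries of a group. Khdrbs2 (SLM1, chromosome 1, 32172714 to 32658568, plus strand) had 90.1 and 93.2 TPM against 59.0 and 60.3 TPM, a 1.54-fold difference (log2 0.61 ± 0.10, adjusted p = 0.0159) that was no longer called by limma without a variance trend (adjusted p = 0.0775). Khdrbs1 (Sam68), which most cell types express, had 61.9 and 66.8 TPM against 59.2 and 56.7 TPM and was not called (log2 0.15, 95% interval -0.12 to 0.41). Khdrbs3 made up 59.9% and 58.5% of the summed Khdrbs TPM in excitatory libraries and 32.3% and 33.4% in inhibitory ones, where the 3 paralogs had nearly equal shares. Qk, the STAR-family gene quaking, known from glia and myelination, had 58.0 and 54.0 TPM in excitatory and 69.0 and 60.7 TPM in inhibitory libraries (log2 -0.21, interval -0.50 to 0.08, not called), beside the oligodendrocyte marker sums given above.

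In the CELF family the most abundant member was the one called. CELF proteins bind UG-rich elements and act both on splicing and on mRNA decay. Celf2 (chromosome 2, 6539694 to 7509563, minus strand) had 1006 and 1115 TPM in excitatory libraries against 559.7 and 573 TPM in inhibitory ones, 1.87-fold higher in excitatory nuclei (log2 0.90 ± 0.11, adjusted p = 0.00708). Its exons share 1961 bases, 7.58% of its exonic length, with the noncoding gene Gm26565 on the other strand, and the labels do not state if strand was used in counting. The libraries of each group lay close together and the groups were far apart. Celf1 (148 and 154 against 114 and 126 TPM) and Celf4 (199 and 223 against 159.6 and 187 TPM) had groups that did not overlap, with log2 values of 0.33 (interval 0.08 to 0.57) and 0.28 (interval -0.02 to 0.58) that were not called. With median ratio scaling limma called Celf1 (log2 0.39, adjusted p = 0.0380). Celf5 had 121 and 205 TPM in excitatory libraries and 77.4 and 117 TPM in inhibitory ones. Its estimate, 0.72, was larger than those of some called genes, but its interval ran from 0.02 to 1.43 and its adjusted p was 0.171. Celf5 exons share 543 bases with the antisense gene Gm16105, whose own values (10.9, 21.2, 6.34 and 13.6 TPM in the same order) were likewise higher in replicate 2 than in replicate 1 of each group. Celf3 (77.7 to 126 TPM) overlapped between groups, and Celf6 (21.0 to 28.6 TPM) was the least abundant, with the inhibitory libraries above the excitatory ones (log2 -0.25, not called). Celf2 took 60.4% to 63.2% of the summed CELF level in excitatory libraries and 50.3% to 55.2% in inhibitory ones.

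Nova1 and Nova2, the KH-domain proteins that bind YCAY clusters and control exons of synaptic transcripts, differed from each other. Nova1 (chromosome 12, 46694517 to 46818929, minus strand) had 37.4 and 39.6 TPM in excitatory libraries and 80.0 and 84.8 TPM in inhibitory ones, 2.14-fold higher in inhibitory nuclei (log2 -1.08 ± 0.11, adjusted p = 0.00435). Nova2 had 14.4 and 18.0 TPM against 11.9 and 17.2 TPM, with overlapping groups (log2 0.16, interval -0.41 to 0.72). Nova1 shares 310 exonic bases (3.54%) with Gm33869 on the same strand, itself at 16.3 and 17.2 against 29.6 and 33.0 TPM. Part of Nova2, 31.7% of its exonic bases, lies opposite the noncoding gene Gm26821, so its level is uncertain. The Nova1 share of the summed Nova level was 72.3% and 68.8% in excitatory libraries and 87.0% and 83.2% in inhibitory ones.

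No Rbfox gene was called, though each had groups that did not overlap. Rbfox proteins bind UGCAUG next to neuronal exons, and Rbfox3 is the NeuN antigen by which neuronal nuclei are commonly sorted. Rbfox1, which spans 1526 kb, had 218 and 244 TPM in excitatory and 253 and 305 TPM in inhibitory libraries (log2 -0.27, interval -0.58 to 0.04). Rbfox2 had 211 and 227 against 181 and 197 TPM (log2 0.21, interval -0.04 to 0.46). Rbfox3 had 121 and 138 against 83.6 and 103 TPM, the largest difference of the family (log2 0.47, interval 0.14 to 0.81, adjusted p = 0.0819). With median ratio scaling limma called Rbfox3 (log2 0.54, adjusted p = 0.0374). Their summed level was nearly the same in both groups, 580 ± 42.4 and 562 ± 61.7 TPM (SD, n = 2). Within that sum Rbfox1 took 39.6% and 40.1% in excitatory libraries and 48.9% and 50.4% in inhibitory ones, and Rbfox3 took 22.1% and 22.6% against 16.1% and 17.1%. Non-overlap of the groups is common in this table: it held for 28 of the 42 members and for 56.2% of all genes.

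The remaining splicing families gave no calls. Mbnl1 and Mbnl2, zinc finger proteins that promote adult splicing patterns, stood at similar levels. Mbnl1 had 158 and 156 TPM in excitatory and 215 and 185 TPM in inhibitory libraries (log2 -0.35, interval -0.61 to -0.08, adjusted p = 0.101), and Mbnl2 had 204 and 220.1 against 196 and 188 TPM (log2 0.14). Of the polypyrimidine tract proteins, Ptbp2, the paralog that replaces Ptbp1 as neurons differentiate, had 193 and 221 against 222 and 218 TPM (log2 -0.09, interval -0.35 to 0.17). Ptbp1, the paralog of non-neuronal cells, was nevertheless present at 48.7 to 57.6 TPM (log2 0.12), and Ptbp3 at 12.6 to 21.4 TPM (log2 0.45, interval -0.03 to 0.92). The exons of Ptbp1 overlap 3 genes on the other strand, Plppr3 among them (40.7 to 85.03 TPM), so its value is uncertain. Srrm4 and Srrm3, activators of neuronal microexons, had 27.8 to 37.0 and 77.7 to 117 TPM, and the spliceosome scaffold gene Srrm2 had 282 and 469 TPM in excitatory and 325 and 503 TPM in inhibitory libraries (log2 -0.15, interval -0.87 to 0.56). In all 3 Srrm genes the groups overlapped.

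Among the adenosine deaminases Adarb1 and Adarb2 were called and Adar was not. Adarb2 (ADAR3, chromosome 13, 8202866 to 8768747, plus strand) encodes a brain-restricted protein for which no editing activity is known and which can compete with the other enzymes for RNA. It had 44.2 and 39.1 TPM in excitatory libraries and 206 and 227 TPM in inhibitory ones, 5.20-fold higher in inhibitory nuclei (41.7 ± 3.61 against 217 ± 14.3 TPM, SD, n = 2, log2 -2.35 ± 0.11, adjusted p = 0.00149). This was the largest difference of the 42, and no pair of libraries from different groups came close to each other. Adarb2 also marks interneurons of the caudal ganglionic eminence. The other 6 markers of these cells summed to 167 to 170.0 TPM in excitatory and 234 to 264 TPM in inhibitory libraries, with 4 called higher in inhibitory and 1 higher in excitatory nuclei. Adarb1 (ADAR2, chromosome 10, 77290726 to 77418270, minus strand), the enzyme that edits the Q/R site of the AMPA receptor subunit transcript Gria2, had 126 and 134 against 194 and 198 TPM, 1.50-fold higher in inhibitory nuclei (log2 -0.59 ± 0.09, adjusted p = 0.0154). The Adarb1 call was lost in limma without a variance trend (adjusted p = 0.0876). Adar (ADAR1) had 138 and 160.5 against 159.6 and 181 TPM with overlapping groups, and was not called (log2 -0.19, interval -0.49 to 0.11). Adar shares 16.8% of its exonic bases with Chrnb2 on the other strand (25.6 to 32.6 TPM). In excitatory libraries Adarb2 made up 14.3% and 11.7% of the summed family level, and in inhibitory ones 36.8% and 37.4%.

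Of the proteins that stabilise mRNA by binding AU-rich elements, Elavl2 alone was called. Elavl2 (HuB, chromosome 4, 91250763 to 91400785, minus strand) had 83.8 and 88.6 TPM in excitatory libraries and 162 and 175 TPM in inhibitory ones, 1.95-fold higher in inhibitory nuclei (log2 -0.96 ± 0.10, adjusted p = 0.00469). The other neuronal members, Elavl3 (57.3 to 83.4 TPM, log2 -0.19) and Elavl4 (44.8 to 53.4 TPM, log2 -0.22), and the ubiquitous Elavl1 (40.6 to 47.1 TPM, log2 -0.20) were not called, with estimates on the same side. Elavl2 was 36.9% and 35.7% of the summed Elavl level in excitatory libraries and 49.4% and 48.8% in inhibitory ones.

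The Musashi and TIA families repeated this pattern of a single called paralog. Musashi proteins bind UAG motifs and repress translation in neural progenitors and glia. Msi2 (chromosome 11, 88339382 to 88718513, minus strand) had 64.2 and 68.3 TPM in excitatory and 129.8 and 139 TPM in inhibitory libraries, 2.03-fold higher in inhibitory nuclei (log2 -1.01 ± 0.10, adjusted p = 0.00435), while Msi1 was low, at 7.77 to 11.7 TPM (log2 -0.33, interval -0.87 to 0.21). Tial1 (TIAR, chromosome 7, 128439777 to 128461717, minus strand), a U-rich element binding protein of stress granules, had 151 and 172 against 222 and 265 TPM, 1.51-fold higher in inhibitory nuclei (log2 -0.59 ± 0.13, adjusted p = 0.0373). That call was lost without the filter on low values and without a variance trend (adjusted p up to 0.131). Its paralog Tia1 was more abundant, with 458 and 521 TPM in excitatory and 549 and 576 TPM in inhibitory libraries (log2 -0.20, interval -0.48 to 0.07, not called). Quantile normalization gave Tia1 a log2 value of -0.35 and a call (adjusted p = 0.0378 in limma).

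Among the translation regulators Cpeb1 was the gene called. Cpeb1 (chromosome 7, 81347026 to 81455465, minus strand), which binds the cytoplasmic polyadenylation element and can repress or activate dendritic mRNAs, had 201 and 205 TPM in excitatory libraries and 115 and 147 TPM in inhibitory ones, 1.55-fold higher in excitatory nuclei (log2 0.64 ± 0.14, adjusted p = 0.0346). This call was lost in the same settings as that of Tial1 (adjusted p up to 0.121). Cpeb2 (62.9 to 76.8 TPM, log2 -0.13), Cpeb3 (44.7 to 54.8 TPM, log2 -0.17) and Cpeb4 (82.6 to 104 TPM, log2 0.24) were not called, and Cpeb1 took 49.4% and 48.0% of the family sum in excitatory against 35.1% and 41.2% in inhibitory libraries. The fragile X gene Fmr1 (71.1 and 102 against 98.0 and 80.2 TPM) and its paralogs Fxr1 (148 and 148 against 158 and 146 TPM) and Fxr2 (68.8 and 83.5 against 76.2 and 84.9 TPM) overlapped between groups. Of these, Fxr1 was estimated most closely, at -0.04 with an interval of -0.27 to 0.20. Pum2, a Pumilio repressor of synaptic mRNAs, had 84.3 and 88.7 against 90.05 and 83.8 TPM, the smallest difference of all (log2 -0.01, interval -0.26 to 0.24). Of the 32 members not called, 16 had an interval that stayed within 0.5 on the log2 scale on either side of 0 and 31 within 1.

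**Figure D3:**
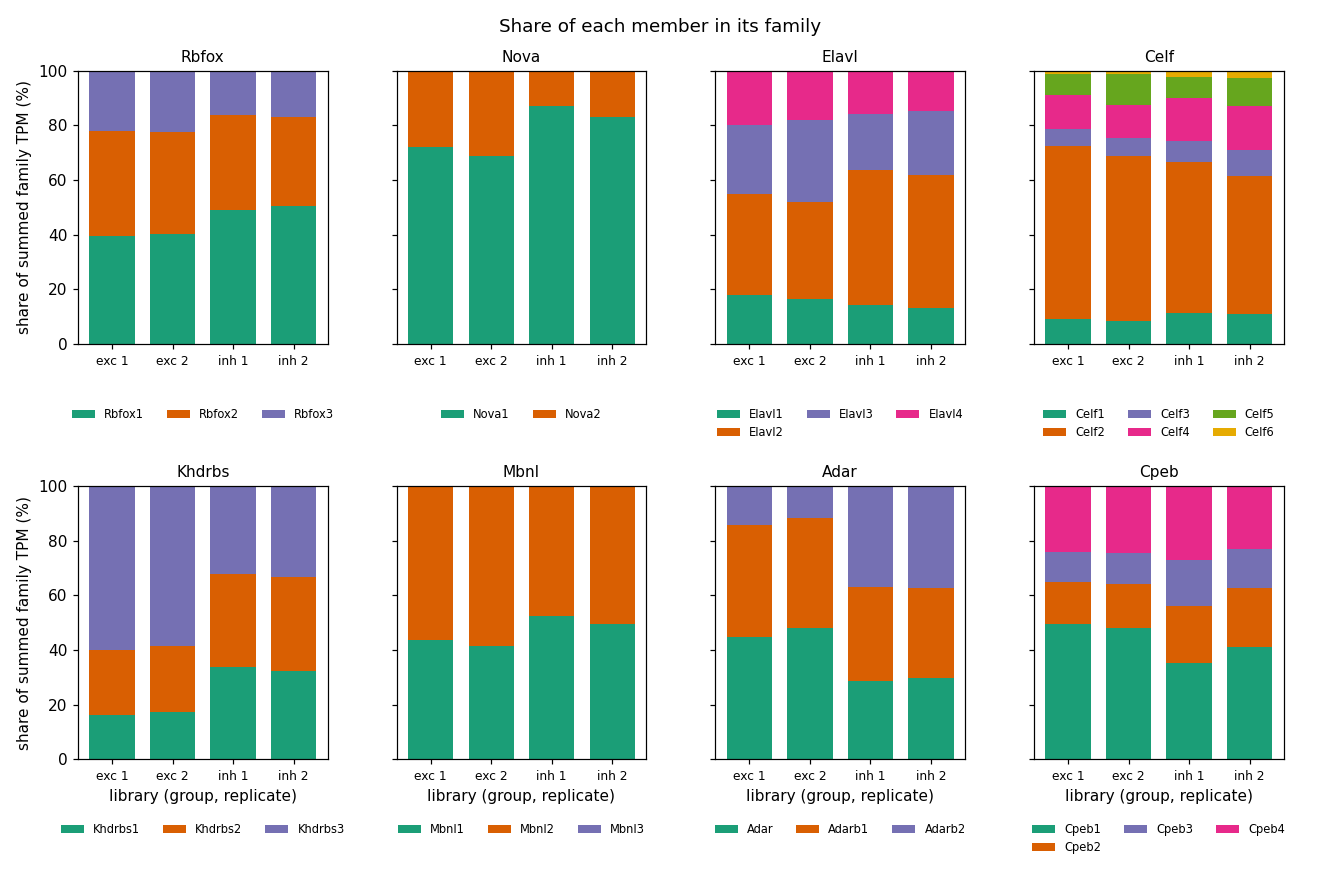
Share of each member in the summed TPM of its family (%), 1 stacked bar per library, for 8 families. The Khdrbs3 segment shrinks from 59.9% and 58.5% in excitatory (exc) to 32.3% and 33.4% in inhibitory (inh) libraries, and the Adarb2 segment widens from 14.3% and 11.7% to 36.8% and 37.4%, and the Mbnl3 segment is too thin to see.

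The change in family shares was not tested beyond these values. For each share given above, the 2 excitatory libraries lay on one side of the 2 inhibitory ones. Among these shares the spread within a group was widest for Cpeb1 in inhibitory libraries (38.2% ± 4.29, SD, n = 2), and the Khdrbs3 shares were 59.2% ± 0.978 and 32.8% ± 0.804.

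Differences between libraries of the same group were larger than differences between groups for some members. In 27 of the 42 members replicate 2 stood above replicate 1 in both groups, against 37.4% of all genes, and in 2 members replicate 1 stood above replicate 2 in both, against 19.8% of all genes. Srrm2 was 1.66-fold higher in replicate 2 than in replicate 1 of the excitatory group and 1.55-fold higher in the inhibitory group, and Celf5 1.69-fold and 1.51-fold. Srrm3 (1.30-fold and 1.51-fold), Celf3 (1.30-fold and 1.39-fold) and Nova2 (1.25-fold and 1.44-fold) followed. The called genes were not among these, but a wide spread between libraries of a group itself works against a call. Khdrbs3 had ratios of 0.994 and 1.04 and Adarb2 of 0.885 and 1.098, and the highest ratio of a called gene was that of Cpeb1 in inhibitory libraries (1.28). The labels do not say what a replicate number shares across groups, and the source of this difference was not tested.

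**Figure D4:**
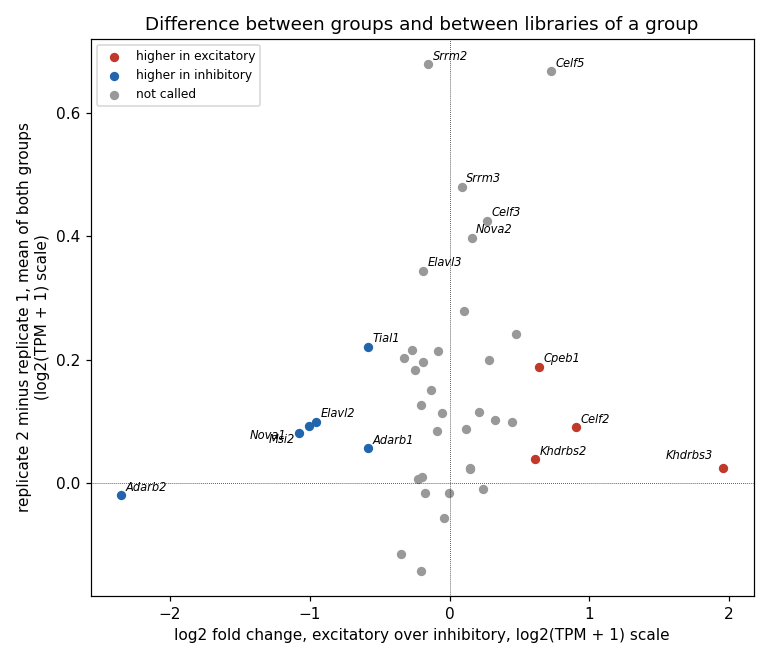
Each tested member by its log2 fold change between groups (horizontal axis) and by the mean log2 difference of replicate 2 minus replicate 1 over both groups (vertical axis), on the log2(TPM + 1) scale. Srrm2 and Celf5 lie highest, at 0.68 and 0.67, while the called genes (coloured) lie between -0.02 and 0.22.

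General splicing genes were set beside these families in 5 lists of 139 genes, of which 135 were tested. These lists too were chosen with earlier results of these data known. SR proteins with Tra2 (13 genes), which recognise exonic enhancers, gave 0 calls by limma, with 2 genes at an unadjusted p under 0.05, and their median log2 fold change was -0.02. Core proteins of the spliceosome (34 genes) also gave 0 calls by limma, with 3 genes at an unadjusted p under 0.05 and a median of -0.07. Of the hnRNP proteins, which often oppose SR proteins, 1 of 25 was called, the poly(C)-binding gene Pcbp4, at 119.9 and 108 against 152 and 162 TPM (log2 -0.46, adjusted p = 0.0423). Other splicing regulators and splicing kinases gave 3 calls among 34, all higher in inhibitory nuclei. Rbms3, an RNA-binding protein named for single-stranded DNA binding, had 13.6 and 12.1 against 79.3 and 96.7 TPM (log2 -2.68 ± 0.15, adjusted p = 0.00156). Its paralog Rbms1 had 34.2 and 39.5 against 94.1 and 77.0 TPM (log2 -1.19), and Rbm20, named after its values were seen, had 2.41 and 3.32 against 7.87 and 7.83 TPM (log2 -1.20). Among regulators of RNA stability and translation, 3 of 29 were called. Tnrc6a, the microRNA silencing partner of Argonaute, had 89.4 and 100.3 against 155 and 196 TPM (log2 -0.87), Ago4 had 20.5 and 23.0 against 31.7 and 38.6 TPM (log2 -0.66), and Cyfip1, a partner of the fragile X protein, was the call on the excitatory side, at 89.8 and 96.1 against 62.7 and 66.5 TPM (log2 0.52). Over the 5 lists together, 7 of 135 genes (5.19%) were called, 1 on the excitatory side and 6 on the inhibitory side. With no filter on low values 0 and 2 were called, those of Rbms3 and Rbms1. Scaling by median ratios gave 6 and 6, and rescaling without the most abundant genes 3 and 6. Whether the named families and these lists differ in how often they were called was not tested.

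**Figure D5:**
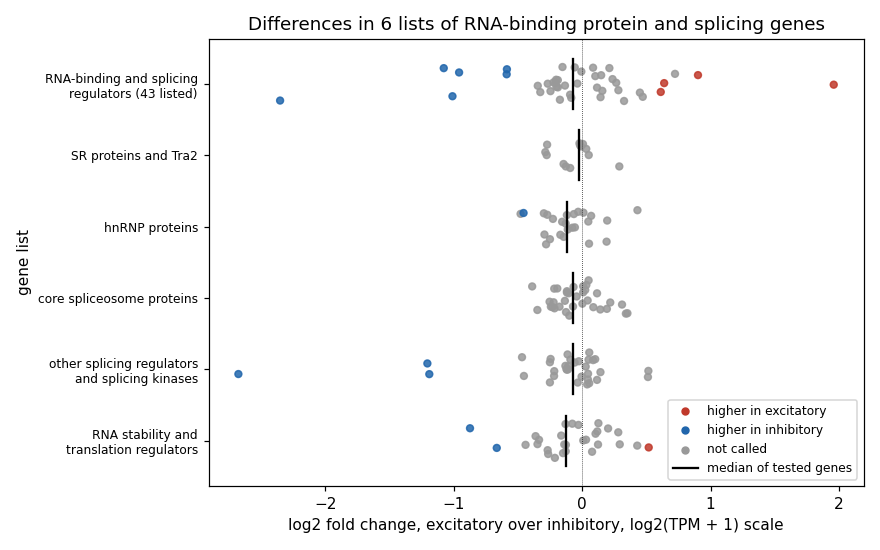
Log2 fold change, excitatory over inhibitory, of each tested gene (points) in the 43-gene list and the 5 lists of general splicing and RNA regulators, with the median as a vertical bar. The SR proteins and core spliceosome proteins stay between -0.39 and 0.35, and Rbms3 lies furthest to the left at -2.68.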

How the data were processed

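The 43 members and every list used here were chosen with earlier results of these data known. Total RNA of sorted nuclei, with ribosomal RNA removed, went into paired-end libraries that keep the strand, per the labels' protocols. The authors deposited 1 table of TPM values per gene for the 4 libraries. The submitters' processing notes name fastp 0.23.4, HISAT2 2.2.1, Bowtie2 2.3.5, StringTie 2.2.1 and the mm10 build, with no roles, annotation release or strand setting. TPM keeps no depth, so the reads behind each value are unknown and no counting interval is given. The columns summed to 999833 to 999891 TPM, and 32207 to 32836 genes were above 0.

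The 26055 genes that reached 1 TPM in 2 or more libraries were tested with limma 3.58.1 in R 4.3.3 on log2(TPM + 1), with a variance trend, no block and Benjamini-Hochberg adjustment over all of them, called under 0.05. Fold changes on this scale understate changes of low genes. The fit was tested on simulated data. Gene spans and exon overlaps come from the GENCODE annotation on mm10, and promoter windows from RefSeq. Per-library values are given for called members and the most abundant of each family, and the rest by library, range or count. Of each context list at most the 2 called genes with the smallest p in each direction were to be named. Family shares were not tested. Alternatives changed the block, pseudocount, filter, scaling and trend, and left out each library.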

Additional observations from a re-analysis of the deposited data

How the results depend on the processing

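All 10 called members kept their direction in the 10 alternatives with all libraries and the 4 that left out 1. Of these settings only the changes of scaling could have reversed a direction, since the groups of all 10 did not overlap. Nova1, Elavl2, Celf2, Khdrbs3, Msi2 and Adarb2 also kept their call in the 10 alternatives with all libraries. Without any filter, 666 genes were called higher in excitatory and 740 in inhibitory nuclei (1414 and 1725 in the report), and 3 and 5 members. With no variance trend the members gave 2 and 4 calls, without Khdrbs2, Cpeb1, Tial1 and Adarb1. Replicate numbers were not shown to pair libraries. Across the genes tested, the replicate differences of the excitatory and inhibitory groups correlated at 0.0957, and 57.2% of genes had the same sign in both. With a replicate block 8 members were called higher in excitatory and 8 in inhibitory nuclei, with Rbfox1, Rbfox3, Celf1, Celf4, Celf5 and Mbnl1 added. Median ratio scaling, which moved the median log2 value of all genes from -0.07 to -0.01, added Rbfox3 and Celf1, and quantile normalization added Tia1. Context genes called higher in excitatory nuclei (1 in the report) were 4 with the block, 0 without a filter, 2 at 5 TPM or more, 6 with median ratios, 3 with quantiles, 3 rescaled and 0 without a trend. Those higher in inhibitory nuclei (6) were 13 with the block, 2 without a filter, 11 with quantiles and 3 without a trend. Leaving out any 1 library gave 0 to 0 calls among all genes, members and context genes in either direction, while 5311 to 5812 genes had an unadjusted p under 0.05 in limma. The cause of these changes was not tested.

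Of 588 log2 values of members, 18 reversed, in 9 members that were not called. With median ratios Fmr1 stood at 0.0086, Fxr1 at 0.0293 and Pum2 at 0.06, and Pum2 at 0.0022 with quantiles and 0.0036 rescaled. Leaving out 1 library gave -0.0898 to 0.4034 for Nova2, -0.1915 to 0.0034 for Ptbp2, -0.5188 to 0.2125 for Srrm2, -0.2099 to 0.3797 for Srrm3, -0.0979 to 0.3023 for Srrm4, -0.3151 to 0.1998 for Fmr1, -0.0935 to 0.0186 for Fxr1, -0.2228 to 0.0526 for Fxr2 and -0.0576 to 0.0448 for Pum2. Of the family shares, 13 values moved by more than 1 SD, all with quantile normalization. Leaving out 1 library of a group cannot move its mean share by that much, so it was no check of the shares.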
